A study of Mus musculus with 93 samples.

Results

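Trim34a, Trim12a, Trim12c, Trim30a and Trim30d are 5 tripartite motif (TRIM) genes that lie within 263 kb of mouse chromosome 7. They were chosen by their measured levels, because several of them were higher in livers of Q140 mice than of Q20 mice at 6 months, so every difference that uses the 6-month Q140 or Q20 libraries is a description here and carries no test. They are 5 of the 39179 genes with a row in the deposited tables, and all 5 were among the 16126 genes with enough reads for a test. The data were 93 liver RNA sequencing libraries from C57BL/6 mice that were male or female and 6 or 10 months old. Huntington's disease is caused by an expanded CAG repeat in the huntingtin gene (Htt). The wild types, 32 libraries, were housed with Q20 mice or with Q50 mice. The other libraries came from mice heterozygous for a knock-in allele of Htt with a CAG length of 20 (Q20), 50 (Q50), 92 (Q92) or 140 (Q140), and no wild types were labelled as housed with Q92 or Q140. Each combination of genotype, housing, age and sex had 4 libraries, except the Q20, Q92 and Q140 males at 10 months with 3 each. The labels give no drug or other treatment and do not tie a library to a named animal, so the spread behind each p-value is that between libraries.

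TRIM proteins are ubiquitin ligases with a RING domain, a B-box and a coiled coil, and many carry a C-terminal domain that recognises viral capsids or other targets. Type I interferon, made by a cell that has sensed foreign nucleic acid, binds its receptor, and the signalling that follows acts through the interferon-stimulated response element in the promoters of antiviral genes. Many TRIM genes are among these targets, and the chromosome 7 group has expanded in the mouse. In the liver, hepatocytes, Kupffer cells (the resident macrophages), endothelium and lymphocytes can all respond to interferon. Interferon gamma from T and NK cells drives an overlapping set that includes the guanylate-binding proteins (Gbp genes).

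Sequencing depth was 28752184 to 46776898 counts per library, with a median of 36089384, and the 5 genes had 131 to 1168 counts in a library. Htt did not check the labels: it spanned 23.9 to 31.3 CPM (counts scaled to library size) in the 6-month Q140 libraries and 18.8 to 40.6 CPM in the 6-month wild types. Abhd1, on the same chromosome as Htt, lay between 17.3 and 27.4 CPM in the knock-ins and between 0.93 and 3.57 CPM in the wild types, except that the library labelled 6-month Q50 female replicate 1 had 2.39 CPM, within the wild-type range; results that rest on it are also given without it. Hepatocyte markers were high throughout, with albumin (Alb) at 41781 CPM or more. In all, 5 libraries stood apart, 3 by brain marker genes above 30 CPM in sum (a Q140 female at 10 months, and a Q140 male and a Q20 male at 6 months) and 2 by a mitochondrial share above 15% (a Q92 male at 6 months and a wild-type male at 10 months). Leaving these 5 out changed no call of the 5 Trim genes in the tested comparisons. The label numbers of 10-month and 6-month libraries come from separate blocks, so age and any difference in handling between the blocks cannot be told apart.

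The genes fall into 3 kinds of near relative. Trim12a and Trim12c are mouse relatives of primate TRIM5, which binds the capsid of incoming retroviruses, and Trim12c has been linked to interferon and NF-kappa-B signalling in mouse cells. Trim34a is the mouse counterpart of human TRIM34. Trim30a dampens Toll-like receptor signalling to NF-kappa-B in mouse macrophages by acting on the TAB2 and TAB3 adaptors, and Trim30d, also named Trim79, restricts tick-borne flaviviruses in mouse cells.

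In GRCm38 with the GENCODE vM21 annotation, Trim34a (ENSMUSG00000056144) occupies chr7:104244457-104262234 on the plus strand. The other genes are on the minus strand: Trim12a (ENSMUSG00000066258) at chr7:104299894-104315466, Trim12c (ENSMUSG00000057143) at chr7:104338754-104353362, Trim30a (ENSMUSG00000030921) at chr7:104409025-104465193 and Trim30d (ENSMUSG00000057596) at chr7:104470014-104507849. Each of the 5 gene bodies overlaps another annotated gene (Gm47248, Gm15133, Gm27995, Gm25405 and Gm16464, in that order of genes), and whether the counting used strand is not stated, so reads in these overlaps cannot be assigned with certainty.

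Near-identical copies make some reads ambiguous. Of the 50-base words in the annotated transcripts of Trim34a, 39.8% also occur in those of Trim34b, which had a median of 1.32 counts per library. Of the words of Trim12c, 28.7% occur in another gene of the cluster, 24.2% in Trim5 and 6.38% in Trim12a. The shares were 7.86% for Trim12a, 7.49% for Trim30d and 5.98% for Trim30a. The deposited counts of these genes were mostly not whole. Trim12a, Trim12c, Trim30a and Trim30d had a value that was not whole in 100% of libraries, and Trim34a in 79.6%. Of the values above 0 over all genes and libraries, 25.97% were not whole (tolerance 0.001). Which genes the reads were divided between is not stated. The division of reads between copies is uncertain, and the sums of copies are given where they matter. These sums join Trim12a with Trim12c and leave out Trim5, so they do not settle the words shared with Trim5.

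The promoters are shown because they hold a feature that the 5 genes share apart from their position. The lines give, 5′ to 3′ on the gene's strand, 100 bases before and 30 bases after the RefSeq start (GRCm38.p6), and the capitals mark TTTC, any 2 bases and TTTC, which is the core of the interferon-stimulated response element (GAAA, any 2 bases and GAAA) read on the other strand.
Trim34a, chr7:104244357-104244486, plus strand: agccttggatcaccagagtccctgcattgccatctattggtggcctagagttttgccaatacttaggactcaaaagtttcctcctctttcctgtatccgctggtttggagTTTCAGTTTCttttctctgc
Trim12a, chr7:104315466-104315595, minus strand: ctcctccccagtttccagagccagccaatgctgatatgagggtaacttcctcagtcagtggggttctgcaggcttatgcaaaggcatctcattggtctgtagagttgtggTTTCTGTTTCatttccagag
Trim12c, chr7:104353320-104353449, minus strand: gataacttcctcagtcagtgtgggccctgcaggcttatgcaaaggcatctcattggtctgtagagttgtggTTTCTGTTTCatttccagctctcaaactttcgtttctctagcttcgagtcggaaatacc
Trim30a, chr7:104465164-104465293, minus strand: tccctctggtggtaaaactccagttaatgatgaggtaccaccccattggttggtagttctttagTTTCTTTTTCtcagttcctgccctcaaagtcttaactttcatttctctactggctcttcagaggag
Trim30d, chr7:104507820-104507949, minus strand: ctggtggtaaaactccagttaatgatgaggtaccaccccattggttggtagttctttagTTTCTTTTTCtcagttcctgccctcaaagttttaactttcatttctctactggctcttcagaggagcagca
All 5 genes held this core in the 300 bases around the start (250 before and 50 after), and so did 3.44% of the 32851 promoters of that length (1131, both strands searched). The first base of the match lay at position 11 from the start in Trim34a and in Trim12a, -29 in Trim12c, -36 in Trim30a and -41 in Trim30d, and a separate Trim30a start had a match at position 3. Of the other genes in the cluster, Trim5 held the core at -49, and Trim6, Trim34b, Trim30b and Trim30c did not. The palindrome of the interferon gamma-activated site (TTC, any 3 bases and GAA, both strands) was in none of the 5 windows and in 8.3% of all promoters. The promoters of Trim12a and Trim12c were 95% identical over 260 aligned bases, and those of Trim30a and Trim30d 93.6% over 295, so these pairs are not independent instances. A match is a description of letters and not a measured binding site.

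All 5 genes were expressed at a low and similar level in liver. On the deposited FPKM scale, which corrects for transcript length and depth, the median over the 93 libraries was 5.21 for Trim12a, 3.33 for Trim12c, 3.25 for Trim30d, 3.21 for Trim34a and 2.85 for Trim30a. Around them on the chromosome, Trim5 had 0.713 FPKM and Trim30b, Trim6 and Trim30c had 0.168, 0.131 and 0.117 FPKM. Within a group of replicates the SD of log2 CPM was 0.245 to 0.267 for the 5 genes, and 69.8% (Trim12c) to 81.4% (Trim30a) of their variance lay between the 24 groups. Without the library labelled 6-month Q50 female replicate 1 these were 0.243 to 0.269 and 69.8% to 82.3%. The 24 groups include the 6-month Q140 and Q20 libraries of the choice, so the share between groups is a description. Levels per library are in CPM after scaling, which compares a gene between samples and not genes with each other.

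**Figure D1:**
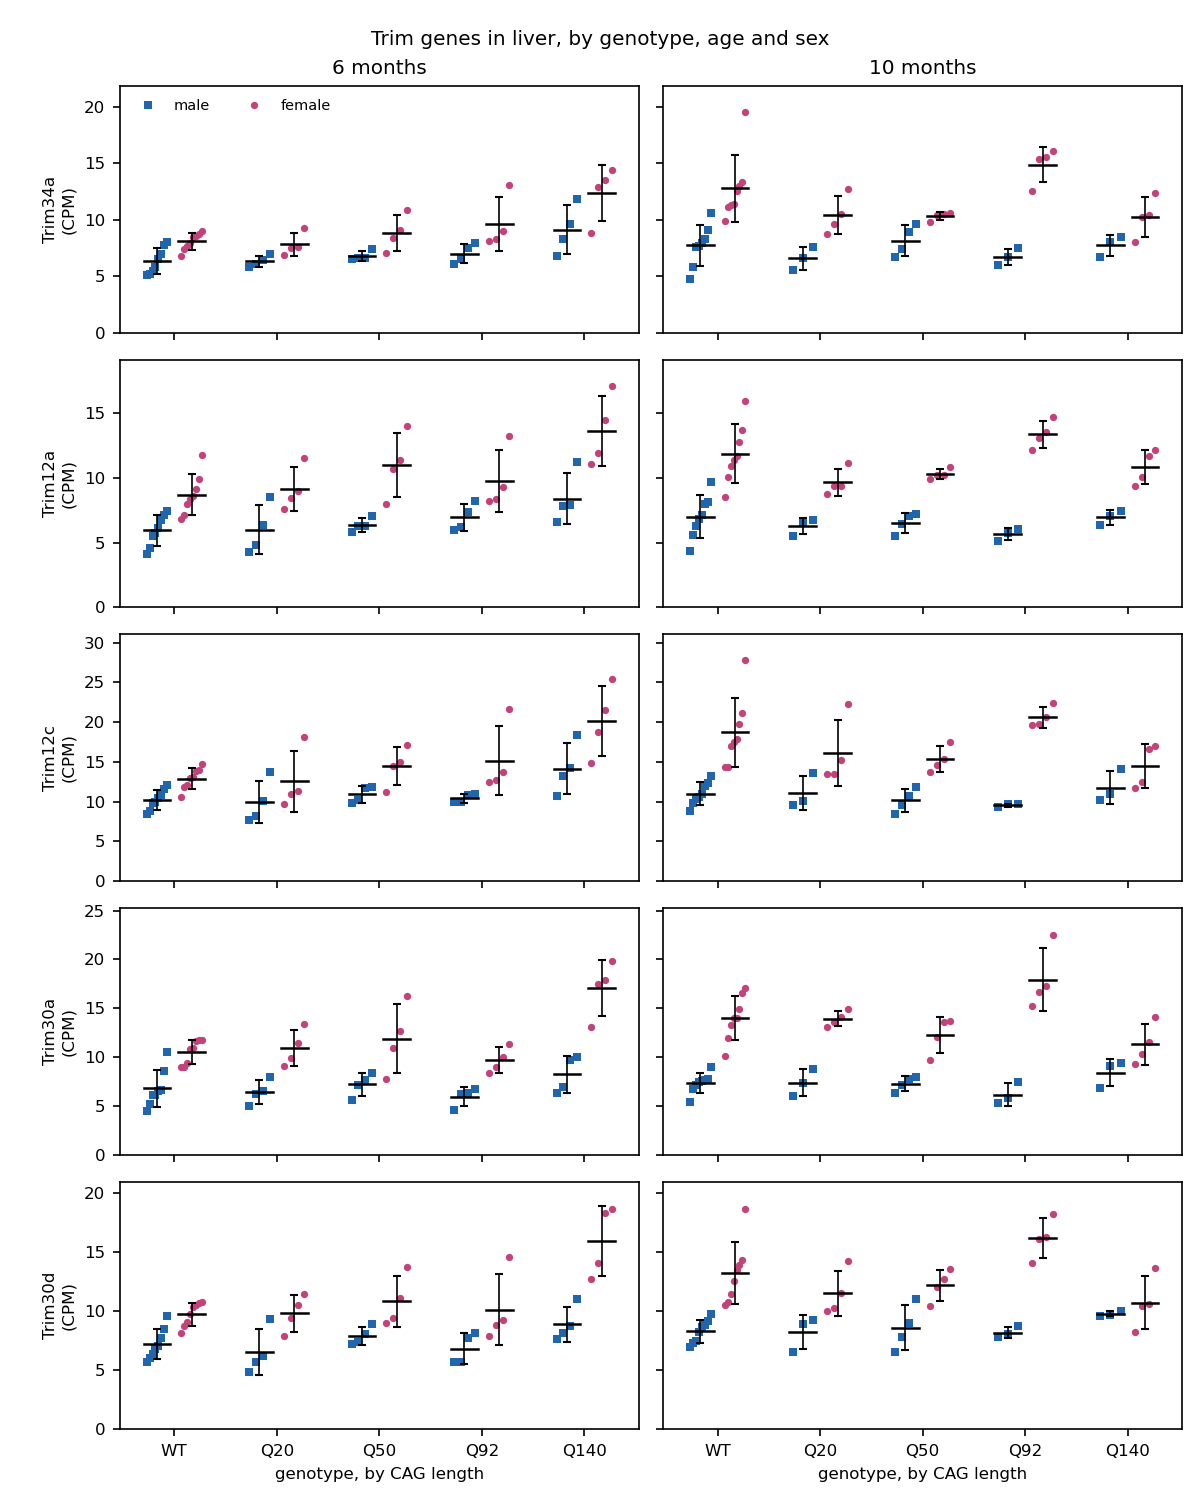
Level of each Trim gene in every library, in CPM, by genotype and sex at 6 and 10 months; points are libraries, short lines are group means and bars are 1 SD. The females lie above the males in most groups, and the highest group mean is that of the Q140 females at 6 months and that of the Q92 females at 10 months.

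Ordered by mean CPM with both sexes weighted equally, Q140 was first at 6 months for all 5 genes, which is the choice of the genes restated. At 10 months Q92 was first for Trim34a (10.8 CPM), Trim30a (12.1 CPM) and Trim30d (12.2 CPM). For Trim12a Q92 had 9.51 CPM, against 9.80 CPM in the wild types housed with Q50, which were first, and for Trim12c Q92 had 15.1 CPM, against 15.7 CPM in the same wild types. Q140 at 10 months was the fourth for Trim12a and the fifth for the other 4. With the SD taken within sex, 4 of the 50 pairs of neighbouring conditions in these orders differed by more than the larger of their SDs. All 4 were Q140 and the next genotype at 6 months (Q92 for Trim34a and Trim12c, Q50 for Trim30a and Trim30d), which belongs to the choice, and at 10 months it was 0 pairs. Q20 was last for Trim34a, Trim12c and Trim30d at 6 months and for Trim34a, Trim12a and Trim30d at 10 months. Without the library labelled 6-month Q50 female replicate 1 these orders differed only for Trim30a at 6 months, where Q50 and the wild types housed with Q20 changed places.

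At 6 months the Q140 livers had 1.41 (Trim30a) to 1.51 (Trim34a) times the level of the Q20 livers for each gene, the values that chose them. Trim34a spanned 6.80 to 14.4 CPM (median 10.7) in Q140 livers, against 5.86 to 9.32 CPM (median 6.95) in Q20 livers and 5.09 to 9.04 CPM (median 7.60) in wild-type livers. Trim30d spanned 7.63 to 18.7 CPM (median 11.9) in Q140 livers, 4.86 to 11.4 CPM (median 8.61) in Q20 livers and 5.72 to 10.7 CPM (median 8.58) in wild types. The Q140 values overlapped those of both other groups, and the highest libraries were Q140 females.

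Trim12c spanned 10.7 to 25.4 CPM (median 16.6) in Q140 livers, 7.72 to 18.1 CPM (median 10.6) in Q20 livers and 8.45 to 14.7 CPM (median 11.7) in wild types. Trim12a spanned 6.59 to 17.1 CPM (median 11.2) in Q140 livers, 4.25 to 11.5 CPM (median 8.03) in Q20 livers and 4.12 to 11.8 CPM (median 7.15) in wild types. Trim30a spanned 6.30 to 19.9 CPM (median 11.5) in Q140 livers, 5.05 to 13.4 CPM (median 8.57) in Q20 livers and 4.54 to 11.7 CPM (median 9.01) in wild types. Within males the Q140 libraries overlapped the Q20 and the wild-type libraries for every gene. Within females the 4 Q140 libraries lay above the 4 Q20 libraries for Trim30d, and above all 8 wild-type libraries for Trim12c, Trim30a and Trim30d, while Trim34a and Trim12a overlapped. Of all genes 4.01% had every Q140 female above every Q20 female and 1.43% above every wild-type female, and nothing is read from these counts, since the libraries are those of the choice.

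The fitted Q140 minus Q20 log2 difference at 6 months was 0.59 ± 0.12 for Trim34a, 0.59 ± 0.13 for Trim12c, 0.57 ± 0.12 for Trim30d, 0.53 ± 0.13 for Trim12a and 0.49 ± 0.13 for Trim30a (± SE, 8 libraries each). The genes were chosen by this difference, so their adjusted p-values in it are no test. By edgeR 3 of the 5 genes lay under an adjusted p of 0.05 there, beside 0.0558% of all genes, and nothing is read from this count. Against the wild types of the same age, a comparison that shares the Q140 libraries, the differences were 0.57 ± 0.10, 0.55 ± 0.11, 0.51 ± 0.11, 0.58 ± 0.11 and 0.49 ± 0.11 in the same order of genes, and 2.45% of all genes were called there. In males alone the Q140 minus Q20 differences were 0.35 (Trim30a) to 0.53 (Trim34a), and in females alone 0.58 (Trim12a) to 0.70 (Trim30d). With near-identical copies summed they were 0.60 for Trim34a with Trim34b, 0.57 for Trim12a with Trim12c, and 0.52 for Trim30a, Trim30b, Trim30c and Trim30d. Without the libraries that stood apart they were 0.50 (Trim12a and Trim30a) to 0.61 (Trim34a and Trim12c).

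At 6 months the mean CPM of Q20, Q50, Q92 and Q140 rose with CAG length for Trim34a and Trim12c. It did not do so at each step for Trim12a, Trim30a and Trim30d. The trend over these genotypes was 0.38 to 0.57 per rise of 120 repeats, a description because it holds the libraries of the choice. Whether the rise was even was not tested. Q92 minus Q20 was 0.22 ± 0.12 for Trim34a, 0.17 ± 0.13 for Trim12c, 0.15 ± 0.13 for Trim12a, 0.05 ± 0.12 for Trim30d and -0.14 ± 0.13 for Trim30a, again with the Q20 libraries of the choice. In the comparisons that use neither set of libraries, Q50 minus its wild types was 0.12 (Trim12c) to 0.24 (Trim12a) and Q92 minus wild types was -0.15 (Trim30a) to 0.20 (Trim12a). By edgeR's quasi-likelihood test 0 of the 5 genes passed in either comparison, where 0.0062% and 0.0248% of all genes did, and 0 of 5 had an unadjusted p under 0.05. DESeq2 and limma on FPKM also called 0 of 5. Without the library labelled 6-month Q50 female replicate 1, Q50 minus its wild types was 0.06 (Trim34a) to 0.23 (Trim12a), and 0 of 5 passed. Wild types housed with Q50 against those housed with Q20 also gave 0 of 5, with -0.18 (Trim30a) to 0.02 (Trim12c) at 6 months, where 0.0186% of genes were called, and -0.04 (Trim30a) to 0.15 (Trim12c) at 10 months, where 1.9% were. None of the 5 had an unadjusted p under 0.05 at either age, and DESeq2 and limma made no call among them.

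Interferon-stimulated genes outside the cluster had the same sign at 6 months, again without a test because the comparison uses the libraries of the choice. Of 43 listed genes all 43 were higher in Q140 than in Q20, with a median log2 difference of 0.40 against 0.01 for all genes. These 43 genes also varied with the Trim genes within groups (median correlation 0.55), so their values are not independent of the choice. Their summed level was 976 to 1891 CPM (median 1317) in Q140 livers and 837 to 1311 CPM (median 1079) in Q20 livers. Of the other Trim genes on the chromosome, Trim5 was at 0.33 ± 0.19 and Trim21, an antibody receptor of the cytosol, at 0.27 ± 0.11. In some other lists every member lay on the same side, and the remaining cell type lists are not given here. All 10 Kupffer cell and macrophage markers (median 0.26) and all 7 T and NK cell markers (0.41) were higher in Q140. So were all 15 genes of MHC class I presentation (0.23), and all 3 measured neutrophil markers were lower (-0.92). The summed Kupffer markers were 202 to 720 CPM (median 465) in Q140 livers and 224 to 588 CPM (median 369) in Q20 livers, with none at 0 in any library. The summed T and NK cell markers were 1.87 to 4.87 CPM (median 3.10) in Q140 livers and 0.92 to 4.51 CPM (median 2.35) in Q20 livers, where Cd8a was at 0 in 2 and Trbc2 in 1 of the 93 libraries. Their part in the result was not tested, and in whole liver more cells of a type and more RNA per cell cannot be told apart. Of 18 listed interferon genes 15 had a row and 0 had enough reads to be tested: Ifnb1 was at 0 in 91 of the 93 libraries and Ifng in 27.

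At 10 months the levels in Q140 and Q20 livers overlapped for all 5 genes. The choice did not use these libraries, which come from mice of another age and from a separate block of label numbers. Trim34a spanned 6.72 to 12.4 CPM (median 8.46) in Q140 livers and 5.56 to 12.8 CPM (median 8.79) in Q20 livers. Trim12c spanned 10.2 to 17.02 CPM (median 12.5) in Q140 livers and 9.58 to 22.3 CPM (median 13.5) in Q20 livers. Trim30d spanned 8.21 to 13.6 CPM (median 9.98) in Q140 livers and 6.52 to 14.2 CPM (median 9.98) in Q20 livers. The ranges of the Q140 libraries lay inside or across those of the Q20 libraries, and within a sex 1 of 5 genes had no overlap, Trim30d in males, where the 3 Q140 libraries lay above the 3 Q20 libraries, as they did for 7.09% of all genes.

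The Q140 minus Q20 log2 difference at 10 months was 0.16 ± 0.14 for Trim12a (adjusted p = 0.705), 0.10 ± 0.13 for Trim34a (0.813), 0.07 ± 0.13 for Trim30d (0.88), -0.03 ± 0.14 for Trim12c (0.96) and -0.06 ± 0.14 for Trim30a (0.917). By edgeR 0 of 5 passed, and 0.44% of all genes did (39 higher and 32 lower). None of the 5 had an unadjusted p under 0.05, and DESeq2 and limma on FPKM called none of them; limma on FPKM called 119 genes higher and 12 lower. Against wild types of both housings Q140 was at -0.16 (Trim34a) to -0.03 (Trim30d), with adjusted p-values of 0.869 to 0.987 and 0 of 5 called or at an unadjusted p under 0.05, where 0.0186% of all genes were called. The trend with CAG length over the 4 knock-in genotypes ran from 0.00 (Trim30a) to 0.16 (Trim12a) per rise of 120 repeats, with 0 of 5 called, 0 at an unadjusted p under 0.05 and 0.329% of all genes called.

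The 10-month and 6-month differences stand side by side as a description, since the second chose the genes. The Q140 minus Q20 difference at 10 months minus that at 6 months was -0.63 for Trim12c, -0.55 for Trim30a, -0.50 for Trim30d, -0.49 for Trim34a and -0.37 for Trim12a, with SEs of 0.18 to 0.20. Within Q140 the 10-month level was lower than the 6-month level by 0.22 (Trim30d) to 0.37 (Trim12c) on the log2 scale, and within Q20 it was higher by 0.07 (Trim12a) to 0.28 (Trim30d). The interferon-stimulated genes had 9 of 43 members higher in Q140 at 10 months, a median of -0.10 and 0 calls. The 4 with the smallest p were Mx2, an interferon-induced GTPase (-0.62 ± 0.18, adjusted p = 0.116), Oas2, which makes the 2-5A messenger (-0.51 ± 0.17), Rsad2, which encodes viperin (-0.73 ± 0.26), and its neighbour Cmpk2 (-0.53 ± 0.21). None of the fixed pathway or cell type lists had a gene called by edgeR in this comparison. Trim5 was at 0.12 ± 0.21.

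**Figure D2:**
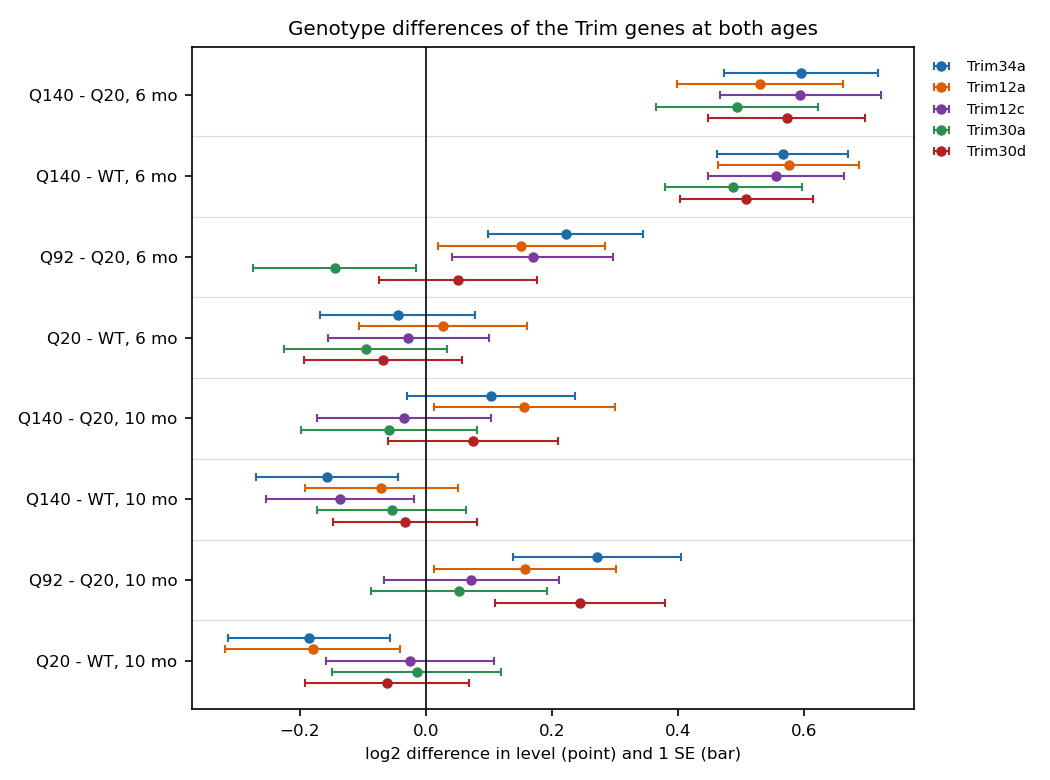
Log2 difference of each Trim gene between genotypes at 6 and 10 months, with points for the fitted value and bars for 1 SE; the 6-month comparisons that hold Q140 or Q20 libraries are a description, since they chose the genes. At 6 months the Q140 minus Q20 values lie between 0.49 and 0.59, and at 10 months between -0.06 and 0.16.

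The highest group means at 10 months were those of the Q92 females for all 5 genes; Trim34a averaged 14.9 ± 1.57 CPM in them (SD, n = 4) and 12.8 ± 2.94 CPM in wild-type females (n = 8). The 4 Q92 females had 12.6, 15.3, 15.5 and 16.1 CPM of Trim34a, against 8.79 to 12.8 CPM in the 4 Q20 females. For Trim12a they spanned 12.1 to 14.7 CPM, against 8.77 to 11.2 CPM in Q20 females, and for Trim30a 15.3 to 22.5 CPM, against 13.1 to 14.9 CPM. The Q92 females lay wholly above the Q20 females for Trim12a and Trim30a, 2 of 5 genes, and 6.62% of all genes had no such overlap; for Trim34a 3 of the 4 Q92 females did. The 3 Q92 males had 6.04, 6.70 and 7.49 CPM of Trim34a, within the 5.56 to 7.61 CPM of the 3 Q20 males.

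Over both sexes Q92 minus Q20 at 10 months was 0.27 ± 0.13 for Trim34a (adjusted p = 0.255), 0.24 ± 0.14 for Trim30d (0.323), 0.16 ± 0.14 for Trim12a (0.602), 0.07 ± 0.14 for Trim12c (0.837) and 0.05 ± 0.14 for Trim30a (0.891). By edgeR 0 of 5 passed, where 2.6% of all genes did (261 higher and 158 lower); Trim34a alone had an unadjusted p under 0.05, and DESeq2 and limma called none of the 5. limma on FPKM called 411 genes higher and 80 lower. The sexes were separated after their levels had been seen. In males alone the difference was -0.26 (Trim30a) to 0.03 (Trim34a), and in females alone 0.36 (Trim12c and Trim30a) to 0.51 (Trim34a), with adjusted p-values of 0.0806 to 0.31 in females. The male minus female difference of these differences was -0.62 ± 0.28 for Trim30a, -0.62 ± 0.29 for Trim12a, -0.57 ± 0.28 for Trim12c, -0.50 ± 0.27 for Trim30d and -0.48 ± 0.27 for Trim34a. None passed (adjusted p = 0.411 to 0.541 by edgeR, 3 of 5 with an unadjusted p under 0.05), where 0.186% of all genes did, and DESeq2 and limma called none of them. For the remaining alleles at 10 months, Q50 minus its wild types was -0.28 (Trim12c) to -0.08 (Trim30a and Trim30d) and Q20 minus its wild types -0.19 (Trim34a) to -0.01 (Trim30a). By edgeR 0 of 5 were called in each, where 0.0124% and 0.0062% of all genes were, with 1 of 5 (Trim12c) and 0 of 5 at an unadjusted p under 0.05, and DESeq2 and limma called none.

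All 5 genes were lower in males than in females. In wild types at 10 months Trim30a spanned 5.47 to 9.02 CPM (median 7.53) in the 8 males and 10.2 to 17.1 CPM (median 14.01) in the 8 females. Trim12c spanned 8.81 to 13.3 CPM (median 10.7) in males and 14.3 to 27.8 CPM (median 17.7) in females. Trim30d spanned 6.99 to 9.70 CPM (median 8.45) in males and 10.5 to 18.7 CPM (median 13.01) in females. In these 3 genes every 10-month wild-type male lay below every female; 1.95% of all genes had no such overlap.

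Trim34a spanned 4.80 to 10.6 CPM (median 7.83) in 10-month wild-type males and 9.89 to 19.5 CPM (median 12.01) in females. Trim12a spanned 4.37 to 9.71 CPM (median 6.98) in males and 8.53 to 15.96 CPM (median 11.5) in females. The sexes overlapped for these genes, and at 6 months for all 5 genes; there 2.31% of all genes had every male below every female. At 6 months the medians were 6.21 CPM in males and 8.22 CPM in females for Trim34a, and 6.39 CPM in males and 10.9 CPM in females for Trim30a.

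Over both ages the wild-type male minus female log2 difference was -0.78 ± 0.09 for Trim30a (adjusted p = 4.67e-11), -0.66 ± 0.09 for Trim12a (1.75e-08), -0.55 ± 0.09 for Trim30d (3.11e-07), -0.55 ± 0.09 for Trim12c (6.33e-07) and -0.53 ± 0.09 for Trim34a (4.74e-07). These are levels 1.45 times (Trim34a) to 1.71 times (Trim30a) lower in males. All 5 of 5 fell, in a comparison where 22.1% of all genes were called lower and 44% were called in either direction. The members' median of -0.55 stood against 0.00 over all genes. At 10 months alone the differences were -0.67 (Trim30d) to -0.93 (Trim30a). At 6 months alone they were -0.33 (Trim12c, adjusted p = 0.0404 by edgeR) to -0.62 (Trim30a). The change of the sex difference with age was -0.43 ± 0.18 for Trim12c, -0.38 ± 0.17 for Trim34a, -0.30 ± 0.18 for Trim30a, -0.24 ± 0.18 for Trim30d and -0.21 ± 0.19 for Trim12a; 0 of 5 were called (adjusted p = 0.388 to 0.776 by edgeR, 2 of 5 with an unadjusted p under 0.05; DESeq2 and limma also called none), where 0.143% of all genes were. On the FPKM scale the median of all genes was itself 0.14 lower in males, and limma called 1471 genes higher and 6308 lower there, against 3537 higher and 3563 lower by edgeR; the 5 genes were at -0.68 (Trim34a and Trim12c) to -0.95 (Trim30a) on that scale.

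The knock-in livers, as libraries separate from the wild types, had the same order of the sexes. At 10 months the male minus female difference over Q20, Q50, Q92 and Q140 was -0.90 ± 0.10 for Trim30a (adjusted p = 2.43e-12), -0.79 ± 0.10 for Trim12a (5.14e-10), -0.64 ± 0.10 for Trim12c (7.22e-08), -0.64 ± 0.09 for Trim34a (2.19e-08) and -0.53 ± 0.09 for Trim30d (2.48e-06). All 5 of 5 fell, where 27.4% of all genes were called lower and 51.7% in either direction. Every male lay below every female for 5 of 5 genes in Q92, 4 of 5 in Q50, 4 of 5 in Q20 and 1 of 5 (Trim12a) in Q140. The share of all genes with no such overlap was 13.6% in Q92, 13.1% in Q50, 18.1% in Q20 and 12.8% in Q140. The Q140 females at 10 months had 8.05 to 12.4 CPM of Trim34a and 8.21 to 13.6 CPM of Trim30d, against 6.72 to 8.46 CPM and 9.59 to 9.98 CPM in Q140 males. This comparison was added after the wild-type difference had been seen.

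Other interferon-stimulated genes were also lower in wild-type males: 29 of 43 fell and 1 rose, with a median of -0.59, where 22.1% of all genes were called lower and 44% in either direction. The smallest p-values were those of the guanylate-binding proteins Gbp3 (-2.05 ± 0.13), Gbp2 (-1.80 ± 0.17) and Gbp7 (-1.27 ± 0.12), and of Samd9l, an antiviral translation inhibitor (-0.86 ± 0.08). Of the receptors and signalling genes 6 of 18 fell and 1 rose. This count is too small to set apart from the same 22.1% of all genes called lower. Those that fell include Irf7, the interferon-amplifying transcription factor (-0.56 ± 0.08), and Ifngr1, a chain of the interferon gamma receptor (-0.37 ± 0.06). Of the nucleic acid sensors and adaptors 9 of 19 fell and 3 rose, with Aim2, a DNA sensor, at -0.79 ± 0.13 and Traf3, an adaptor, at 0.43 ± 0.08. Of the NF-kappa-B genes 3 of 18 fell and 7 rose, where 22.1% of all genes were called lower and 21.9% higher. Ikbkg, the NEMO subunit of the kinase, was at 0.58 ± 0.05. Of the other Trim genes on the chromosome 5 of 7 fell: Trim6 (-0.91 ± 0.20), Trim5 (-0.84 ± 0.14), Trim30b (-0.62), Trim21 (-0.45 ± 0.08) and Trim68 (-0.38 ± 0.11).

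Markers of several cell types also differed between the sexes. All 10 Kupffer and macrophage markers and all 7 T and NK cell markers fell in wild-type males. So did 4 of 5 B and plasma cell markers and 4 of 5 stellate markers. All 3 measured neutrophil markers rose, where 21.9% of all genes were called higher. Of the dendritic cell markers 2 of 5 and of the endothelial markers 1 of 5 fell, counts too small to set apart from the 22.1% of all genes called lower. Vsig4, a complement receptor of Kupffer cells, was at -1.05 ± 0.15, and Klrb1c, the NK1.1 receptor, at -1.38 ± 0.23. At 10 months the summed Kupffer markers were 105 to 344 CPM (median 283) in males and 314 to 710 CPM (median 444) in females. The summed T and NK cell markers were 1.29 to 4.54 CPM (median 2.06) in males and 3.14 to 12.4 CPM (median 4.67) in females. Their part in the difference of the Trim genes was not tested. Of 15 genes of MHC class I presentation 12 fell, such as Tapbp, the tapasin of the peptide-loading complex (-0.53 ± 0.05).

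Wild-type livers had more of all 5 genes at 10 months than at 6 months. Trim34a spanned 4.80 to 19.5 CPM (median 10.2) at 10 months and 5.09 to 9.04 CPM (median 7.60) at 6 months, in 16 libraries each. Trim12c spanned 8.81 to 27.8 CPM (median 13.8) at 10 months and 8.45 to 14.7 CPM (median 11.7) at 6 months. Trim30d spanned 6.99 to 18.7 CPM (median 10.1) at 10 months and 5.72 to 10.7 CPM (median 8.58) at 6 months. The low ends of the ages overlapped and the highest libraries were 10-month females. For Trim34a the 10-month males reached 10.6 CPM, also above every 6-month library.

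The 10 minus 6 month log2 difference in wild types was 0.46 ± 0.09 for Trim34a (adjusted p = 0.000103), 0.34 ± 0.09 for Trim12a (0.00831), 0.32 ± 0.09 for Trim30d (0.00812), 0.32 ± 0.09 for Trim12c (0.0104) and 0.26 ± 0.09 for Trim30a (0.0396), or 1.199 to 1.38 times. All 5 of 5 rose, where 8.43% of all genes were called higher and 15.1% in either direction; limma on FPKM called 1629 genes higher and 670 lower, against 1359 higher and 1084 lower by edgeR. The call of Trim30a was lost when any of 13 of the 32 libraries was left out (0.23 to 0.26, adjusted p = 0.0503 to 0.0987). Housed with Q50 these were female replicates 3 and 4 and male replicate 1 at 10 months, and female replicates 1, 2 and 3 and male replicates 1 and 2 at 6 months. Housed with Q20 they were female replicate 1 and male replicate 4 at 10 months, and male replicates 1, 2 and 4 at 6 months. In males alone the differences were 0.10 (Trim12c) to 0.27 (Trim34a), and 0 of 5 were called by edgeR (adjusted p = 0.297 to 0.804). In females alone they were 0.41 (Trim30a) to 0.66 (Trim34a). The test of the difference between the sexes is the one given above, with 0 of 5 called. In Q50 and Q92, which share no library with the wild types, 1 of 5 rose, Trim30d (0.31 ± 0.09, adjusted p = 0.033), where 1.94% of all genes were called higher and 3.57% in either direction. Trim34a was at 0.26 ± 0.09 there (0.0775), Trim30a at 0.25 ± 0.09 (0.13), Trim12c at 0.08 ± 0.09 (0.743) and Trim12a at 0.02 ± 0.10 (0.941). The Trim30d call was lost without the libraries whose label lacks an index (0.22, adjusted p = 0.252) and without any of 11 libraries (0.27 to 0.30, adjusted p = 0.054 to 0.0743): in Q50 female replicate 4 and male replicate 3 at 10 months and female replicates 2 and 4 and male replicate 2 at 6 months, and in Q92 female replicate 1 and male replicate 1 at 10 months and female replicates 1 and 2 and male replicates 2 and 4 at 6 months. Without the library labelled 6-month Q50 female replicate 1, 2 of 5 were called, Trim30d (0.34, adjusted p = 0.0158 by edgeR) and Trim34a (0.28, 0.049). Trim34a was also called without the 6-month Q92 female replicate 4 (0.30).

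Of the 43 interferon-stimulated genes 12 rose and 0 fell with age in wild types, with a median of 0.16, where 8.43% of all genes were called higher. Xaf1, an interferon-induced promoter of apoptosis, was at 0.50 ± 0.12 (adjusted p = 0.00198), Ifit3, which binds viral RNA with its partners, at 0.44 ± 0.13 (0.0118), Samd9l at 0.29 ± 0.08 (0.0121) and Adar, an RNA-editing enzyme, at 0.24 ± 0.06 (0.00211). Among receptors and signalling genes 2 of 18 rose, Ifngr2 (0.22 ± 0.07) and Irf9 (0.19 ± 0.06), and 0 fell, a share near that of all genes. Among sensors 3 of 19 rose and 0 fell: Ikbke (0.38 ± 0.10), Tlr3, the receptor for double-stranded RNA (0.35 ± 0.10), and Dhx58, which encodes the RNA sensor LGP2 (0.33 ± 0.09). Of the NF-kappa-B genes Tab1 alone rose (0.34 ± 0.11), and of the other Trim genes on the chromosome Trim21 alone (0.31 ± 0.08, adjusted p = 0.00466), with Trim5 at 0.35 ± 0.14 (0.0669). All 10 Kupffer and macrophage markers were below 0 and C1qa was called (-0.39 ± 0.12), where 6.72% of all genes were called lower. The 7 T and NK cell markers were all above 0 with 0 called by edgeR (Cd3g at 0.57 ± 0.24 had the smallest p), and of the B and plasma cell markers Ighm (1.81 ± 0.49) and Jchain (1.23 ± 0.45) rose. Their part in the age difference was not tested.

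**Figure D3:**
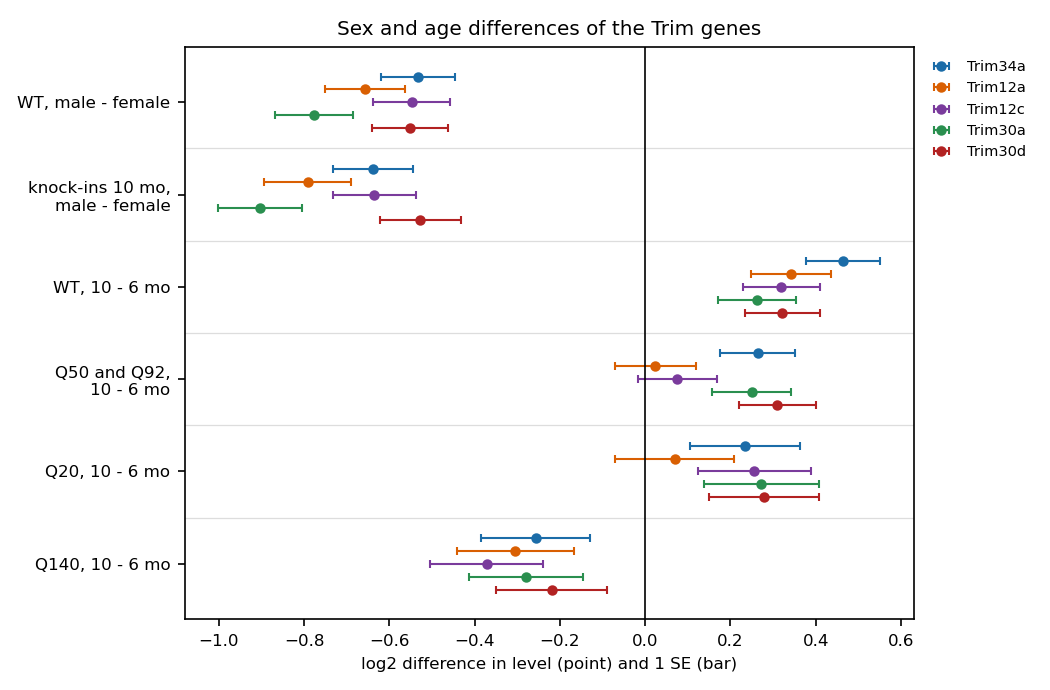
Log2 differences of each Trim gene between males and females and between 10 and 6 months, with points for the fitted value and bars for 1 SE. The male minus female values of wild types lie between -0.78 and -0.53, and the 10 minus 6 month values of wild types between 0.26 and 0.46.

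The 5 genes also varied together between replicates of a group. With each library's log2 CPM taken relative to the mean of its group, the Pearson correlation between genes was 0.48 (Trim12a with Trim30a) to 0.75 (Trim12c with Trim30d) over 93 libraries, which share depth and, between copies, reads. Without the library labelled 6-month Q50 female replicate 1 it was 0.50 to 0.76. Ranked by correlation with the mean of the 5, the most alike of 16114 other genes were Samd9l (0.83), Ddx60 (0.82), Cd274 (0.77), Rtp4 (0.76), Tlr3 (0.75), Tnfsf10 (0.72), Xaf1 (0.72), Gbp7 (0.72), Rbm43 (0.71) and Dhx58 (0.70). Ddx60 is an interferon-induced helicase, Cd274 encodes the checkpoint ligand PD-L1, and Rtp4 is an interferon-induced regulator of the response. Of these 10, 4 belong, as do 16 of the first 100, to the list of 43 interferon-stimulated genes, whose median correlation was 0.55, against 0.01 over all genes. From FPKM values 8 of the 10 were again in the first 10, without the library labelled 6-month Q50 female replicate 1 it was 9, from the 6-month libraries alone 4 and from the 10-month libraries alone 4. In the cluster Trim5 was at 0.71, Trim30b at 0.37, Trim6 at 0.35 and Trim30c at 0.06. Farther along the chromosome Trim21 was at 0.66, Trim68 at 0.33 and Trim3 at -0.07.

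**Figure D4:**
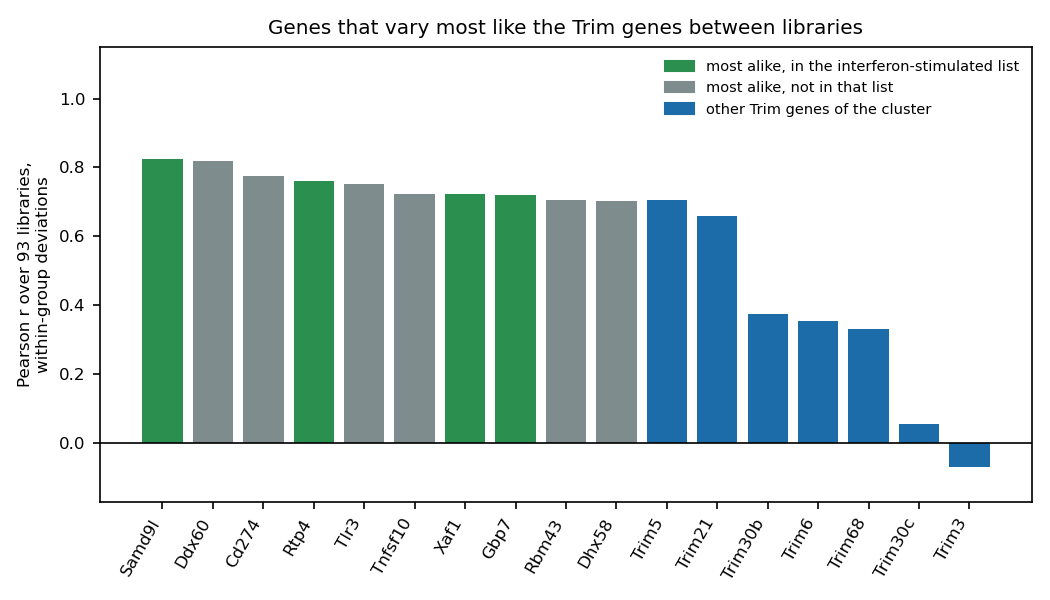
Pearson correlation of each gene's deviation from its group mean with that of the 5 Trim genes over 93 libraries, for the 10 most alike genes and for the other Trim genes of the chromosome. The 10 lie between 0.70 and 0.83, and Trim5 reaches 0.71.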

How the data were processed

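Liver RNA was sequenced in 93 libraries. Per the submitters' processing notes CASAVA 1.8.2 was used; the aligner, counter, genome build, annotation and strand setting are not given in the sources used here. The authors deposited expected counts per Ensembl gene and library, of which 25.97% of the values above 0 were not whole, and the authors also deposited FPKM values. Symbols and positions came from GENCODE vM21 (GRCm38).

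The counts were rounded and tested with edgeR 4.0.16 in R 4.3.3: filterByExpr (minimum count 10, total 15) kept 16126 genes, TMM factors were 0.847 to 1.156, and robust quasi-likelihood tests ran on contrasts of 24 group means with Benjamini-Hochberg adjustment over all genes tested. A call is an adjusted p under 0.05. Comparisons average over sexes, and the trend is scaled to the span from the shortest to the longest repeat. DESeq2 1.42.0 and limma 3.58.1 on log2(FPKM + 0.1) or log2(FPKM + 1) were alternatives, with RLE scaling, no filter, and libraries left out in turn. The steps were tested on simulated counts. Levels between genes are compared only as FPKM.

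The Trim genes, lists and comparisons were chosen with earlier results of these data known. Named are the 5 genes, the other Trim genes of the chromosome, the 10 most alike genes and, per list, up to 4 genes with the smallest p. No library was left out of the main result.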

Additional observations from a re-analysis of the deposited data

Results flagged for a closer look

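A library that stood far from the other 3 of its group was found in 4 of 105 combinations of gene and group, where chance alone gives about 1 in 20. Trim34a was at 19.49 CPM in replicate 3 of the 10-month wild-type females housed with Q50, against 11.1 to 11.43 CPM in the other 3; the same library had the highest sum of the 5 genes of all libraries. Trim12c was at 21.6 CPM in replicate 4 of the 6-month Q92 females, against 12.41 to 13.75 CPM in the others. Trim34a was at 7.413 CPM in replicate 1 of the 6-month Q50 males, against 6.546 to 6.667 CPM. Trim30a was at 10.95 CPM in replicate 1 of the 6-month wild-type females housed with Q20, against 11.65 to 11.75 CPM.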

How the results depend on the processing

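All 5 calls of the male minus female difference, in wild types and in knock-ins, kept their direction and their side of the threshold under every alternative run, and so did every count of 0. The count of 5 genes with age in wild types was 0 in males alone and 4 to 5 with a library left out. The count of 1 in Q50 and Q92 with age was 0 without libraries lacking an index, 2 with near-identical copies summed and 0 to 2 with a library left out. Without the low-count filter Trim30a lost its call with age in wild types (0.26, adjusted p = 0.0627). No other count of Trim genes changed by more than 1.5 times under any alternative run.

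Changes of sign concerned only differences that were not called; all values are log2 differences, and the cause was not tested. For Q140 minus Q20 at 10 months, males alone gave 0.0876 for Trim12c and 0.1863 for Trim30a, and females alone -0.0225 for Trim34a and -0.1013 for Trim30d. In the same comparison Trim12c was at 0.0408 with copies summed, 0.0445 with limma and 0.1 added (with or without the filter) and 0.0324 with 1 added, and Trim30a at 0.0029 with copies summed and 0.0265 without libraries lacking an index. Q140 minus wild types at 10 months, without libraries high in brain markers or mitochondrial share, was 0.0119 for Trim12a and 0.0219 for Trim30d. Q92 minus Q20 at 10 months in males alone was -0.1543 for Trim12a, -0.2121 for Trim12c, -0.2578 for Trim30a and -0.0047 for Trim30d, and without libraries lacking an index -0.0236 for Trim12c and -0.0364 for Trim30a. The 10-month trend of Trim30a was 0.0017 with DESeq2 and with RLE scaling, 0.0406 without libraries lacking an index, 0.0347 without those high in brain markers or mitochondrial share and 0.0447 with copies summed, and that of Trim12c -0.0591 with the L number as covariate and -0.0328 without libraries lacking an index. Without libraries lacking an index, Q20 minus wild types at 10 months was 0.0369 for Trim12c, Q92 minus wild types at 6 months 0.0815 for Trim30d, and Q50 and Q92 with age -0.0320 for Trim12a. The housing difference at 6 months was 0.0753 for Trim34a and 0.1106 for Trim30d without libraries lacking an index, 0.0114 for Trim34a with the L number, 0.0008 for Trim12a with copies summed and 0.0003 for Trim30d with limma and 0.1 added, with or without the filter. At 10 months it was 0.1410 for Trim30a without libraries lacking an index and 0.0251 with copies summed.

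With a library left out in turn, sign changes occurred near 0 in Q50 and Q92 with age (-0.0077 to 0.0640 for Trim12a), housing at 6 months (-0.1178 to 0.0248 for Trim12a, -0.0197 to 0.0667 for Trim12c, -0.0847 to 0.0416 for Trim30d and -0.0959 to 0.0245 for Trim34a), Q140 minus Q20 at 10 months (-0.1125 to 0.0633 for Trim12c and -0.1224 to 0.0146 for Trim30a), Q20 minus wild types at 10 months (-0.1238 to 0.0385 for Trim12c, -0.0879 to 0.0491 for Trim30a and -0.1207 to 0.0086 for Trim30d). They also occurred in the 10-month trend (-0.0529 to 0.1009 for Trim12c and -0.0635 to 0.0565 for Trim30a), Q140 minus wild types at 10 months (-0.1166 to 0.0099 for Trim30a and -0.1024 to 0.0203 for Trim30d), Q92 minus Q20 at 10 months (-0.0279 to 0.1254 for Trim30a). They also occurred in housing at 10 months (-0.1101 to 0.0255 for Trim30a), Q50 minus wild types at 10 months (-0.1494 to 0.0116 for Trim30d), Q92 minus wild types at 6 months (-0.1261 to 0.0378 for Trim30d).

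The replicate numbers do not pair the libraries: over 93 pairs of same-numbered libraries the correlation of their deviations ran from -0.27 to 0.27 with a median of -0.01, and in 0 of 24 pairs of groups were all above 0.1. With the replicate block the counts of Trim genes called were 0 for Q140 minus Q20 at 10 months and 5 for both wild-type comparisons, as without it. Over all genes the 10-month Q140 minus Q20 count, 71 here, was 121 with DESeq2, 37 without the filter, 3 with the L number, 2 without libraries lacking an index, 130 without libraries that stood apart, 131 with limma, 0 in males alone, 1019 in females alone and 8 to 96 with a library left out. The 419 of Q92 minus Q20 was 893 without libraries that stood apart, 206 in a fit of that age alone, 1 without libraries lacking an index and 82 to 511 with a library left out. At 131 counts or more per library depth limits these genes little, while reads could be split between near-identical copies.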

Other observations

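The sum of the 5 genes was highest in the 10-month wild-type female housed with Q50, replicate 3 (99.0 CPM), followed by the 6-month Q140 female replicate 4 (92.5 CPM) and the 10-month Q92 female replicate 1 (91.7 CPM). The first of these ranked 4 of all libraries in the summed interferon-stimulated genes (1635 CPM), while its B and plasma cell markers (37.1 CPM) ranked 34 and its Kupffer markers 40 of 93.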
